A study of Mus musculus with 17 samples.

Results

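Vindeburnol and VB-127, a compound that the labels call its derivative, were compared with each other across all genes in mouse brainstem tissue labelled locus coeruleus. All 5 vindeburnol libraries and all 6 VB-127 libraries were taken by their titles, 11 of the 17 libraries of the series. The other 6 libraries came from untreated mice; they entered the fit so that the 3 groups shared 1 estimate of spread, and their values stand beside those of the compounds. All mice were C57BL/6 males with no genetic change named in the labels, and no age is stated in the labels. Either compound was dissolved in water and given by gavage in 1 daily dose of 20 mg/kg on 5 days in a row, and tissue was collected 24 h later. Dose, route, vehicle and time were thus matched between the compounds, whereas no group received gavage with water alone. Nothing in the labels ties a library to a mouse of its own, so the tests measure the spread between libraries, which may be technical in part. The title of the series names the molecular target of these compounds as its question, and this comparison asks which transcripts tell the compounds apart.

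The locus coeruleus is the main cluster of noradrenaline neurons of the brain. Its neurons make noradrenaline from dopamine with the enzyme Dbh, downstream of the tyrosine hydroxylase Th, and take it back up through the transporter Slc6a2. Vindeburnol is a synthetic compound related to the alkaloid vincamine and has been studied for its action on these neurons. Corticosterone, the adrenal glucocorticoid of mice, binds a receptor inside the cell that then enters the nucleus, binds DNA and raises transcription of genes such as Sgk1, Fkbp5, Tsc22d3 and Per1 in neurons, glia and vessels.

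The deposited values are TPM, transcript levels corrected for length that sum to the same total in each library. How deeply a library was read cannot be seen from TPM, and each precision given here comes from the spread between libraries. The compounds' libraries held 21016 to 26993 genes above 0, fewest in vindeburnol replicate 1. No difference between the compounds was detected in this number, in the TPM share of the short neuronal RNA Bc1 (16.1% to 29.3%), of mitochondrially encoded genes or of the 10 most abundant genes by two-sided exact permutation tests (p of 0.561, 0.918, 0.877 and 0.818, n = 5 and 6, each 0.918 after adjustment over the 4 measures). In the compounds' libraries the tissue label was not borne out by the noradrenergic markers Dbh and Slc6a2. Dbh lay between 0 and 1.72 TPM after vindeburnol and between 0 and 2.36 TPM after VB-127, and Slc6a2, which did not pass the filter for testing, between 0 and 0.929 TPM in both groups. Slc6a2 was at 8.94 TPM in control replicate 1, at 4.15 TPM in control replicate 6 and at most 0.686 TPM in the remaining controls. Dbh was listed at 0 in vindeburnol replicate 1 and VB-127 replicates 1 and 4. Genes of neighbouring nuclei were abundant and uneven: Tph2, which serotonin neurons use, was at 5.82, 54.9, 16.6, 83.2 and 80.9 TPM in vindeburnol replicates 1 to 5 and ran from 1.08 to 102 TPM with a median of 71.7 TPM after VB-127. The cerebellar Purkinje cell gene Pcp2 reached 20.3 TPM in vindeburnol replicate 3 and at most 3.75 TPM in the other 10 libraries of the compounds.

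No single gene passed the test between vindeburnol and VB-127. With limma on log2(TPM + 1), 0 of 16153 genes tested (0%) passed an adjusted p under 0.05, as under all 31 alternatives, while 546 genes reached an unadjusted p under 0.05, fewer than the 808 that make 5% of the genes tested. Of these 546 genes, 144 were higher after vindeburnol (0.891% of those tested) and 402 lower (2.49%). This split moved with the scaling and with single libraries: 26.4% of the genes at that unadjusted p were higher in the main analysis, 45.0% with median-ratio scaling and 49.4% with quantile normalization. With the scaling unchanged it was 46.3% without vindeburnol replicate 3, 16.3% without replicate 2, 16.98% without VB-127 replicate 2, 13.5% with library weights, 37.6% with no filter on low values and 39.3% without vindeburnol replicates 1 and 3. The 2 compounds' values did not overlap for 17 genes that were higher after vindeburnol (0.105%) and for 46 that were lower (0.285%). The median log2 difference over all genes, vindeburnol minus VB-127, was -0.03.

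The absence of calls does not show that the compounds act alike, but the intervals bound the difference in log2(TPM + 1). That scale understates the fold change of low genes. Each fold limit of an interval, here and below, is one of TPM + 1. For 15297 genes (94.7%) the 95% interval of the difference lay inside a 2-fold change either way, and for 12038 (74.5%) inside a 1.5-fold change. The interval spanned a median of 0.668 on the log2 scale. Only 67 genes had a fitted difference of 2-fold or more on the log2(TPM + 1) scale. The abundant housekeeping gene Actb, beta-actin, is an example of a narrow interval, with 691, 650, 714, 726 and 703 TPM after vindeburnol and 639 to 752 TPM (median 689) after VB-127, a log2 difference of 0.01 (95% interval -0.13 to 0.15). Controls lay lower for Actb, from 444 to 580 TPM.

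**Figure D1:**
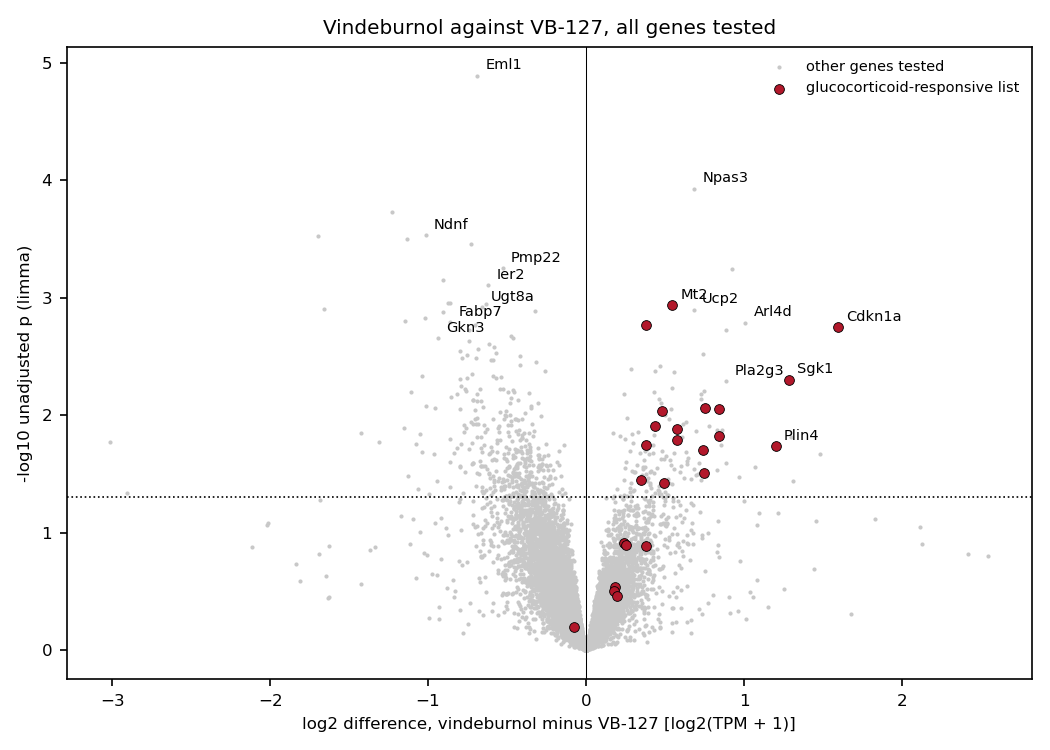
Each point is 1 of the 16153 genes tested, with the log2 difference of vindeburnol minus VB-127 on the x axis and the -log10 of the unadjusted limma p on the y axis. Red points are the 24 genes of the glucocorticoid-responsive list, and the dotted line marks an unadjusted p of 0.05. Eml1 on the lower side and Npas3 on the higher side have the smallest p of their direction, and 17 of the red points lie to the right of 0 above the dotted line.

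Among genes with lower values after vindeburnol, Eml1, which encodes a microtubule-associated protein, had the smallest p. Eml1 was at 17.8, 27.6, 18.9, 28.5 and 22.9 TPM after vindeburnol and at 32.4 to 43.1 TPM (median 37.7) after VB-127. All 5 vindeburnol libraries lay below the lowest VB-127 library. The log2 difference of Eml1 was -0.69 (SE 0.12, 95% interval -0.94 to -0.44). The adjusted p in limma was 0.208, which missed the threshold and ranged from 0.0568 to 1 over the alternatives. Untreated controls, at 23.6 to 30.2 TPM, overlapped the vindeburnol libraries and lay below all VB-127 libraries.

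Ndnf, a secreted neurotrophic protein, was at 2.10, 1.17, 1.18, 2.56 and 3.16 TPM after vindeburnol and at 2.18 to 7.47 TPM (median 5.94) after VB-127, with a log2 difference of -1.02 and an adjusted p of 0.802. VB-127 replicate 2, the lowest of its group, lay inside the vindeburnol range. The peripheral myelin protein gene Pmp22 was at 28.4, 37.0, 40.9, 38.9 and 32.1 TPM after vindeburnol and at 41.1 to 62.4 TPM (median 51.9) after VB-127, so the groups met without overlap. Pmp22 is not a member of the oligodendrocyte and myelin list described below. The immediate early gene Ier2, induced by cell activity, was at 3.66, 3.59, 4.09, 4.96 and 5.04 TPM after vindeburnol and at 5.72 to 8.48 TPM (median 7.00) after VB-127, again without overlap. Their log2 differences were -0.53 (95% interval -0.80 to -0.26) for Pmp22 and -0.62 (95% interval -0.95 to -0.29) for Ier2, neither past the threshold (adjusted p 1.00 in limma for both). Controls of Pmp22 (35.1 to 58.7 TPM) and Ier2 (3.22 to 6.33 TPM) spanned parts of both groups.

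Among genes with a mean of at least 2 TPM whose names are not predicted ones, the other genes named for the smallest p on the lower side had log2 differences from -0.94 to -0.32, all with an adjusted p of 1.00 in limma. They included glial genes. Fabp7, a fatty acid-binding protein of astrocytes, was at 15.7, 31.4, 25.5, 19.0 and 13.4 TPM after vindeburnol and at 24.7 to 47.4 TPM (median 39.4) after VB-127, a log2 difference of -0.86 with overlapping groups. The growth factor receptor gene Fgfr2 had a log2 difference of -0.62 and Ugt8a, which makes the myelin lipid galactosylceramide, one of -0.66. Gkn3, at 2.99, 9.26, 2.54, 2.74 and 7.26 TPM after vindeburnol and at 7.64 to 12.2 TPM (median 9.33) after VB-127, was lower in value by 0.94 on the log2 scale, and vindeburnol replicate 2 overlapped VB-127. Coa3, an assembly factor of cytochrome oxidase, Nudt7, a peroxisomal hydrolase, the transcription factor gene Pou2f1, and Aif1l and Mmgt2 had differences of -0.32, -0.46, -0.74, -0.70 and -0.48. Adarb2, of the RNA-editing ADAR family, and Myef2l did not overlap between the groups, with 3.92 to 4.65 against 5.70 to 8.66 TPM and 1.36 to 2.25 against 2.33 to 4.18 TPM. Within the same limits, the 4 largest fitted differences on this side at unadjusted p under 0.05 belonged to the mitochondrial transfer RNA genes mt-Tp (-3.01) and mt-Tv (-2.90), the histone gene H2ac24 (-1.13) and Ndnf. Both transfer RNA genes were listed at 0 in 4 of the 5 vindeburnol libraries, and each was listed at 0 in 1 VB-127 library and in at least 1 control. Over the alternatives their differences ran from -5.088 to -1.657 for mt-Tp and from -4.965 to -1.591 for mt-Tv. The size of these 2 differences is therefore uncertain.

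Npas3, a transcription factor gene of the bHLH-PAS family, had the smallest p among genes with higher values after vindeburnol. It was at 8.28, 9.41, 9.11, 12.3 and 11.8 TPM after vindeburnol and at 4.73 to 7.23 TPM (median 6.17) after VB-127, so every vindeburnol library lay above every VB-127 library. The log2 difference of Npas3 was 0.69 (SE 0.14, 95% interval 0.39 to 0.99), and the adjusted p in limma was 0.802, or 0.134 to 1.00 over the alternatives. Controls, at 3.81 to 5.72 TPM, overlapped VB-127 and lay below vindeburnol. Unlike the glucocorticoid-responsive genes described further on, the highest vindeburnol libraries for Npas3 were replicates 4 and 5, not replicates 1 and 3.

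Several other genes on the higher side were highest in vindeburnol replicates 1 and 3. Ucp2, a carrier of the inner mitochondrial membrane, was at 106, 48.3, 101, 75.1 and 54.1 TPM after vindeburnol and at 38.3 to 52.7 TPM (median 45.2) after VB-127. The small GTPase gene Arl4d was at 54.7, 18.6, 50.1, 24.7 and 18.2 TPM after vindeburnol and at 9.45 to 26.6 TPM (median 13.7) after VB-127. Replicate 2 of Ucp2, and replicates 2, 4 and 5 of Arl4d, lay inside the VB-127 range. Log2 differences were 0.68 for Ucp2 and 1.01 for Arl4d, and without vindeburnol replicates 1 and 3 they were 0.35 and 0.48. Pnpla2, the main triglyceride lipase of fat stores, and the secreted phospholipase gene Pla2g3 did not overlap between the groups, with 37.1 to 57.4 against 28.3 to 34.3 TPM and 3.03 to 12.4 against 1.79 to 2.90 TPM. Klf15, a Kruppel-like factor, had a log2 difference of 0.44, the lactate transporter gene Slc16a3 one of 0.54, and the exchange factor gene Net1 one of 0.74. The linker histone gene H1f2, at 47.2, 22.1, 24.4, 26.3 and 51.4 TPM after vindeburnol against 20.5 to 22.9 TPM after VB-127, was highest in replicates 1 and 5. Aldh1l1, a folate enzyme that marks astrocytes, had a difference of 0.29. Ndufb4c, a near-identical copy of the complex I gene Ndufb4, had a difference of 0.43 while Ndufb4 had one of -0.17, so how reads were shared between the copies is uncertain. None of the genes of this paragraph passed the threshold (adjusted p 1.00 in limma).

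**Figure D2:**
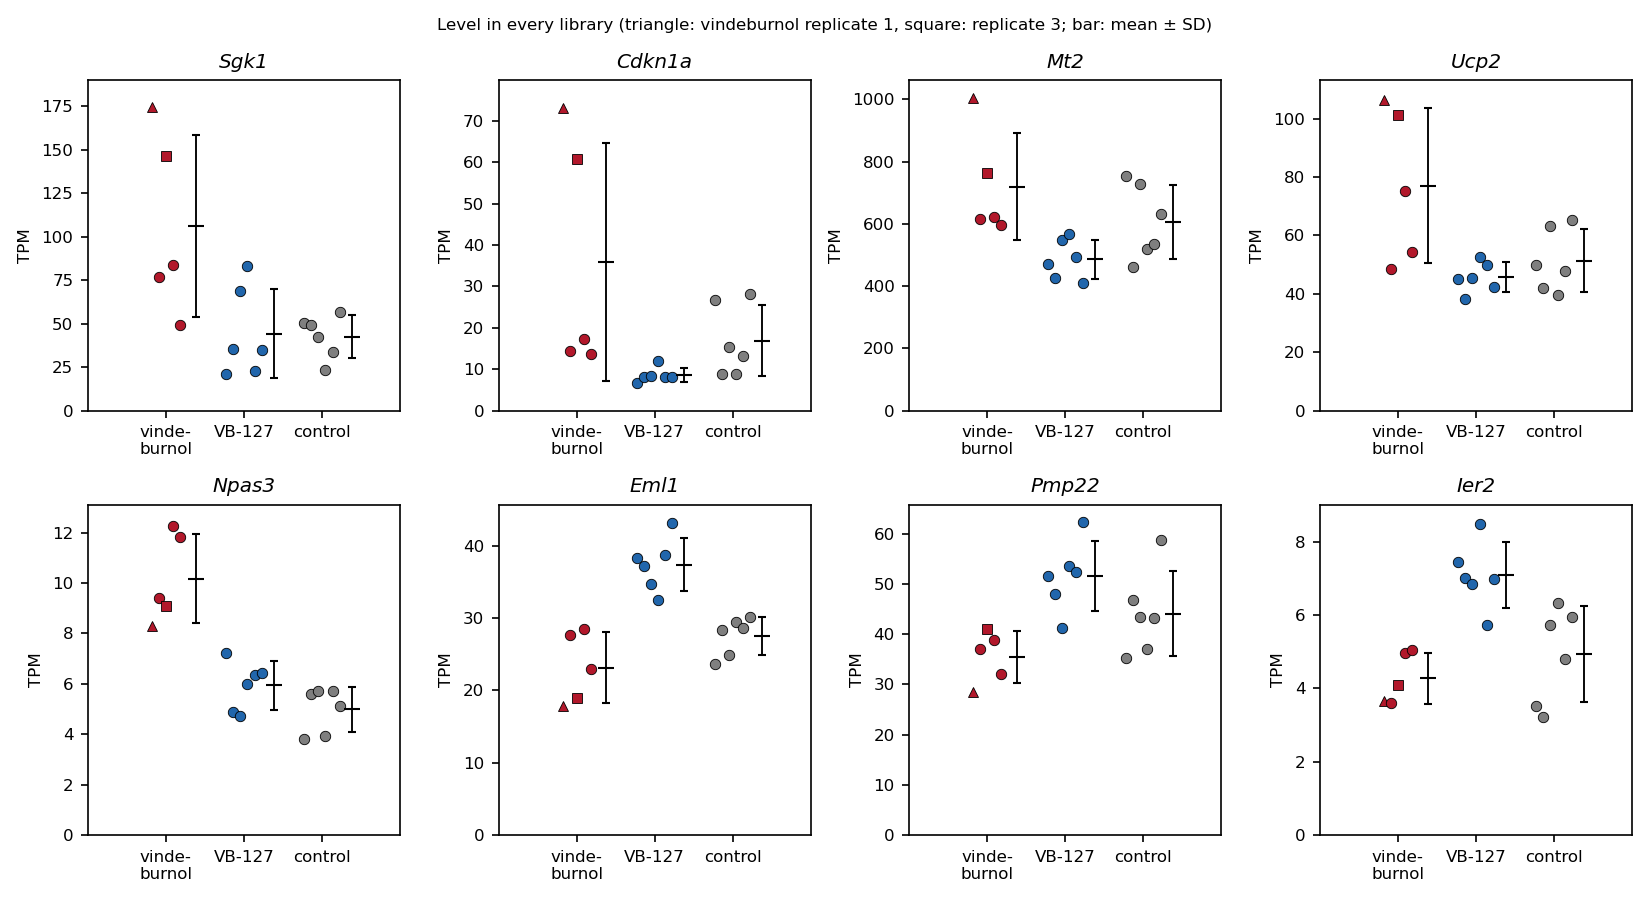
Level in TPM (y axis, from 0) of 8 genes in each vindeburnol, VB-127 and control library, with the mean and SD of the group as a bar. In the upper row, the triangle and square of vindeburnol replicates 1 and 3 are the highest points, whereas Npas3 is highest in other vindeburnol libraries, and Eml1, Pmp22 and Ier2 are lower in all 5 vindeburnol libraries than in all 6 VB-127 libraries.

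Glucocorticoid-responsive genes had the highest median difference of the 33 gene lists examined. All 24 listed genes were tested. Their median log2 difference was 0.49, against -0.03 for all genes. Of the 24, 23 were higher in value after vindeburnol, as were 6277 of all 16153 genes. At an unadjusted p under 0.05, 17 of the list were higher, where 0.891% of all genes were. None was lower at that p (background 2.49%), and none passed adjustment over all genes (adjusted p 1.00 in limma). Against the shared untreated controls the median of the list was 0.39 for vindeburnol and -0.01 for VB-127. The list holds genes already known to be high in some vindeburnol libraries, so its count is a description and no independent evidence of direction.

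These values rested largely on vindeburnol replicates 1 and 3. The mean log2(TPM + 1) of the list was 5.02, 4.20, 4.80, 4.26 and 3.86 in vindeburnol replicates 1 to 5, 3.69 to 4.12 after VB-127 and 3.46 to 4.20 in controls. Replicates 1 and 3 lay above every other library, replicates 2 and 4 lay just above the VB-127 range and replicate 5 lay inside it. Of the 24 genes, 23 had their highest level of all 17 libraries in vindeburnol replicate 1 or 3, and 20 were higher in both than in every VB-127 library. Without replicate 1 the count at unadjusted p under 0.05 was 9, without replicate 3 it was 11, and without both it was 3, where 0.715% of all genes were higher at that p. These 3 genes were Mt1, Cdkn1a and Mt2, and without both libraries the median of the list was 0.20 with 21 genes higher in value.

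The same 2 libraries were low in serotonergic markers. The mean level of the serotonergic list was 3.36 and 3.53 in vindeburnol replicates 1 and 3 and 4.09 to 4.42 in the other 3. With Slc6a3 and Tph2 levels as covariates, 16 glucocorticoid-responsive genes were higher at an unadjusted p under 0.05. The part of these markers in the glucocorticoid-responsive values was not tested. Vindeburnol replicate 3 also held the highest Bc1 share of the compounds' libraries, 29.3%, and replicate 1 the highest mitochondrially encoded share, 12.0%. Whether these shares bear on the list was not tested.

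Sgk1, a kinase that regulates ion transport and is a classic glucocorticoid target, was at 175, 76.7, 146, 83.5 and 49.3 TPM after vindeburnol and at 21.3 to 83.0 TPM (median 34.9) after VB-127. Replicates 1 and 3 lay far above VB-127, replicate 4 just above its highest library, and replicates 2 and 5 inside its range. The log2 difference of Sgk1 was 1.28 (SE 0.39, 95% interval 0.45 to 2.12), and 0.80 (95% interval -0.07 to 1.66) without replicates 1 and 3. Cdkn1a, the cell cycle inhibitor p21, was at 73.2, 14.4, 60.9, 17.2 and 13.7 TPM after vindeburnol and at 6.65 to 11.9 TPM (median 8.17) after VB-127, with no overlap. Its log2 difference was 1.60 (SE 0.43, 95% interval 0.69 to 2.50), and 0.77 without replicates 1 and 3. Control libraries of Cdkn1a, at 8.77 to 28.2 TPM, spanned the 3 lower vindeburnol libraries and reached down into the VB-127 range.

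The metallothionein genes Mt1 and Mt2, whose proteins bind zinc and copper, were among the 4 of 24 members whose groups did not overlap. All 4 were higher after vindeburnol, where 0.105% of all genes were higher without overlap. Mt2 was at 1003, 614, 763, 621 and 597 TPM after vindeburnol and at 411 to 568 TPM (median 482) after VB-127, a log2 difference of 0.55 (95% interval 0.25 to 0.85). Mt1 was at 1262, 923, 938, 964 and 1000 TPM after vindeburnol and at 645 to 886 TPM (median 782) after VB-127, a log2 difference of 0.38 (95% interval 0.16 to 0.60). Controls of Mt2 (463 to 755 TPM) and Mt1 (773 to 1141 TPM) reached across both groups. Pdk4, a kinase that restrains glucose oxidation, was the fourth such member, at 3.29 to 6.14 against 2.55 to 3.22 TPM.

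Further metabolic members had larger differences with overlap. Plin4, a coat protein of lipid droplets, was at 23.3, 10.5, 10.6, 13.1 and 3.65 TPM after vindeburnol and at 2.30 to 8.15 TPM (median 4.00) after VB-127, a log2 difference of 1.20 with only replicate 5 inside the VB-127 range. Angptl4, a secreted inhibitor of lipoprotein lipase, was at 11.3, 1.71, 8.40, 3.11 and 1.90 TPM after vindeburnol and at 1.51 to 2.61 TPM (median 1.73) after VB-127. Replicates 1 and 3 carried the Angptl4 difference of 0.84, which was 0.14 without them. Hif3a, a factor of the hypoxia-inducible family, and Sult1a1, a sulfotransferase, had differences of 0.84 and 0.58.

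Members that act on signalling and transcription were also highest in vindeburnol replicate 1 or 3, apart from Bcl6, which was highest in replicate 2. Fkbp5, a co-chaperone that dampens the receptor itself, was at 26.5, 13.7, 27.6, 15.9 and 11.1 TPM after vindeburnol and at 8.98 to 15.1 TPM (median 11.4) after VB-127. Tsc22d3, an anti-inflammatory mediator of glucocorticoids, was at 162, 116, 91.8, 69.3 and 94.4 TPM after vindeburnol and at 73.0 to 84.9 TPM (median 78.4) after VB-127. For Fkbp5 replicates 2 and 5 lay inside the VB-127 range, and for Tsc22d3 replicate 4 lay below it. Their log2 differences were 0.57 and 0.38. Arrdc2, an arrestin-domain gene, the zinc finger gene Zbtb16, the kinase gene Map3k6, the NF-kappaB inhibitor gene Nfkbia, the transcription factor gene Cebpd and the mTORC1 inhibitor gene Ddit4 had differences of 0.75, 0.74, 0.74, 0.49, 0.48 and 0.43. The other 7 members did not reach an unadjusted p of 0.05. Mertk (0.38), Per1 (0.25), Errfi1 (0.24), Tiparp (0.20), Klf9 (0.18) and Bcl6 (0.18) were higher in value, and the phosphatase gene Dusp1 (-0.08) was lower.

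**Figure D3:**
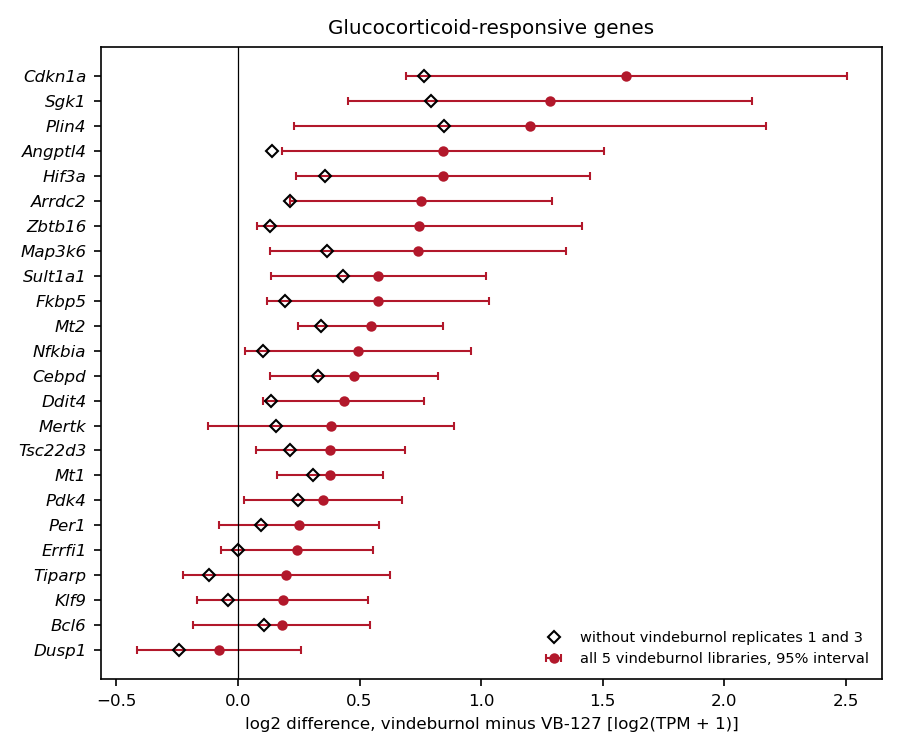
Log2 difference, vindeburnol minus VB-127, of the 24 glucocorticoid-responsive genes (red, with the 95% interval from limma) and the same without vindeburnol replicates 1 and 3 (open diamonds). Most intervals lie right of 0 with all libraries, and nearly all diamonds lie closer to 0 than the red points; Klf9, Tiparp and Dusp1 lie left of 0 without the 2 libraries.

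The upstream sequence of the members was searched for ACANNNTGT, the core letters of the palindromic element that the glucocorticoid receptor binds, which reads the same on both strands. RefSeq promoters (GRCm38.p6, 250 bases before to 50 bases after the start of the gene) were found for 21 of the 24 genes. The letters occurred in 3 of them (14.3%), against 2135 of 27025 genes with a promoter in the table (7.90%). Sgk1, Mt1 and Map3k6 were the 3 genes, and the 250 bases before their start are shown, since Sgk1 and Mt1 are members with a wide and a narrow spread between vindeburnol libraries and Map3k6 is the other gene with a match. Capitals mark the match; a match is a description of letters and no evidence of binding.
Sgk1 (chr10:21993640-21993889, + strand): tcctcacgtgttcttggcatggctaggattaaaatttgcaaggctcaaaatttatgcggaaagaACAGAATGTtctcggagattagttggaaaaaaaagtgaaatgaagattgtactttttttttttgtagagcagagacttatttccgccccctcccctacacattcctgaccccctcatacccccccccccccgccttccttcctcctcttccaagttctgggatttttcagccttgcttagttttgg
Mt1 (chr8:94178839-94179088, + strand): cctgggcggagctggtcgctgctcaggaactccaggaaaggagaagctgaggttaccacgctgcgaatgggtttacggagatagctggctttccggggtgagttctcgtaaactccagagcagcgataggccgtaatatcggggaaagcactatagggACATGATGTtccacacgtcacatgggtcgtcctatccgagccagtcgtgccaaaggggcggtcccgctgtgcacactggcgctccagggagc
Map3k6 (chr4:133240568-133240817, + strand): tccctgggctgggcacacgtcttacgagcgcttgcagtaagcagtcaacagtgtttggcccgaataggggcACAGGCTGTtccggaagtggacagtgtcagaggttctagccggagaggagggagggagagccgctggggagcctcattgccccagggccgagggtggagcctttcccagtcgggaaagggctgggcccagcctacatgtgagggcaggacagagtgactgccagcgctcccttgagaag
The match began 186 bases before the start of this Sgk1 transcript, 92 before that of Mt1 and 179 before that of Map3k6. A second Sgk1 start in the table had a match of its own upstream, ACAGTTTGT. Mt2, Cdkn1a, Fkbp5 and the remaining members either had no match in this window or no promoter in the table, from which nothing follows about the receptor.

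Oligodendrocyte and myelin genes had lower values after vindeburnol than after VB-127. Of 20 genes tested, 6 were lower at an unadjusted p under 0.05 (2.49% of all genes were) and 0 higher, with a median log2 difference of -0.26 against -0.03 for all genes. Ugt8a, which makes galactosylceramide, was at 17.6, 35.7, 16.9, 28.6 and 25.0 TPM after vindeburnol and at 31.4 to 44.4 TPM (median 40.3) after VB-127. The highest vindeburnol library of Ugt8a overlapped the lower VB-127 libraries. Qdpr, a pterin-recycling enzyme, Aspa, which splits N-acetylaspartate, and Fa2h, which hydroxylates myelin lipids, had differences of -0.31, -0.42 and -0.36. Mbp, the myelin basic protein gene, had one of -0.23 (95% interval -0.47 to 0.02). The mean level of the list was 6.95 to 7.25 after vindeburnol, 7.19 to 7.53 after VB-127 and 6.79 to 7.43 in controls, and against controls its median was -0.09 for vindeburnol and 0.21 for VB-127. In bulk tissue, fewer cells of a type and less RNA per cell cannot be told apart. The count of 6 was 2 without vindeburnol replicates 1 and 3, 3 without replicate 3, 3 without VB-127 replicate 6 and 10 when only the 11 libraries of the compounds were fitted.

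Endothelial genes, of the cells that line brain vessels, were also lower in value after vindeburnol for several members. Of 20 tested, 5 were lower at an unadjusted p under 0.05 (background 2.49%) and 1 was higher (background 0.891%), with a median of -0.16. The angiopoietin receptor gene Tek was at 3.34, 5.31, 2.16, 4.16 and 4.28 TPM after vindeburnol and at 4.15 to 7.78 TPM (median 6.83) after VB-127, a difference of -0.60. The transporter genes of the blood-brain barrier Slco1c1 and Slco1a4 had differences of -0.54 and -0.47, and Itm2a one of -0.27. Slc2a1, the glucose transporter of the same barrier, went the other way, at 124, 97.6, 123, 95.7 and 68.9 TPM after vindeburnol and at 69.6 to 87.5 TPM (median 78.3) after VB-127, a difference of 0.34. Slc2a1 was highest in replicates 1 and 3, where Slco1c1 was lowest (12.8 and 9.18 TPM). Without these 2 libraries 0 of the endothelial genes were lower at that p, and the count was 3 without replicate 1, 2 without replicate 3, and 3 without VB-127 replicate 6, with median-ratio scaling or with Slc6a3 and Tph2 as covariates.

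Immediate early genes, which neurons switch on within minutes of activity, were lower in value after vindeburnol for most members. Of 19 tested, 4 were lower at an unadjusted p under 0.05 (background 2.49%) and 0 higher, with a median of -0.16. Besides Ier2 these were Junb (-0.57), Arc (-0.47) and Jun (-0.36). Arc, a synaptic protein gene, was at 10.8, 13.5, 4.98, 12.5 and 12.9 TPM after vindeburnol and at 11.5 to 17.7 TPM (median 15.2) after VB-127. Fos was at 3.71, 18.5, 6.05, 7.23 and 7.02 TPM after vindeburnol and at 8.03 to 18.5 TPM (median 9.84) after VB-127, a difference of -0.48 (95% interval -1.08 to 0.12). Vindeburnol replicate 2 equalled the highest VB-127 library for Fos while the other 4 lay below the whole VB-127 range. Without replicate 2 the count of 4 became 8, and without replicates 1 and 3 it became 1.

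Inflammation, antigen presentation and interferon genes had 4 of 22 tested members lower at an unadjusted p under 0.05 (background 2.49%) and 0 higher, with a median of -0.15. Cd74, the invariant chain of MHC class II, was at 4.93, 4.45, 6.71, 3.16 and 6.29 TPM after vindeburnol and at 4.48 to 12.2 TPM (median 8.13) after VB-127, a difference of -0.59. VB-127 replicate 3, at 4.48 TPM, lay within the vindeburnol range. H2-Eb1, the class I gene H2-K1 and the interferon-induced gene Isg15 had differences of -0.55, -0.39 and -0.43. The count was 1 without vindeburnol replicates 1 and 3. It was 2 without vindeburnol replicate 1 or 4, without VB-127 replicate 5 or 6, with the replicate block, with a filter of 5 TPM and with median-ratio scaling or quantile normalization. H2-Eb1 did not pass the filter of 5 TPM and was not tested there. The acute-phase gene Lcn2 was uneven in both groups, at 2.74, 0.625, 5.89, 3.53 and 1.47 TPM after vindeburnol and at 0.692 to 7.00 TPM after VB-127, a difference of 0.42 (95% interval -1.42 to 2.26).

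Further glial and vessel lists had at most 1 member in a direction at an unadjusted p under 0.05 (0.891% of all genes were higher and 2.49% lower). For astrocytes 1 of 20 was higher (Aldh1l1) and 1 lower (Slc7a10, an amino acid transporter, -0.25), and Gfap, the filament gene of reactive astrocytes, had a difference of -0.21 (95% interval -0.56 to 0.14). For microglia 1 of 19 was lower (the purine receptor gene P2ry12, -0.43), for oligodendrocyte precursors 1 of 12 (Enpp6, -0.37), and for pericytes, smooth muscle and fibroblasts 1 of 20 (Rgs5, -0.44).

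Noradrenergic genes, which the tissue label puts first, held 18 of 22 tested members, with a median of -0.07. At an unadjusted p under 0.05, 0 were higher and 0 lower, against 0.891% and 2.49% of all genes. Th was at 53.6, 42.5, 28.9, 83.8 and 98.3 TPM after vindeburnol and at 33.3 to 154 TPM (median 77.4) after VB-127, a log2 difference of -0.47 (95% interval -1.46 to 0.53). Dbh had a difference of -0.43 (95% interval -1.72 to 0.86) at levels near 0. These intervals are too wide to tell a 2-fold difference from none. Th is also the rate-limiting enzyme of dopamine neurons, whose transporter gene Slc6a3 was at 15.2 to 124 TPM in the same libraries.

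All 19 dopaminergic genes tested were lower in value after vindeburnol, as were 9876 of all 16153 genes. The median of the list was -0.31, the lowest of the 33 lists. Of the 19, 1 reached an unadjusted p under 0.05, against 2.49% of all genes (Nr4a2, a transcription factor of dopamine neurons, -0.68). Slc6a3 was at 45.6, 15.2, 24.6, 51.0 and 53.4 TPM after vindeburnol and at 17.4 to 124 TPM (median 51.9) after VB-127, a difference of -0.56 (95% interval -2.28 to 1.17). Slc18a2, which loads monoamines into vesicles, and Ddc, the decarboxylase shared by monoamine neurons, had differences of -0.56 (95% interval -1.21 to 0.08) and -0.39 (95% interval -0.91 to 0.13). Pitx3, another factor of these neurons, had one of -0.50. The mean level of the list ran from 3.10 to 4.09 after vindeburnol and from 3.45 to 4.35 after VB-127, so the groups overlapped over most of their range.

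Serotonergic genes had a median of -0.10 over 16 tested, with 1, Qdpr, lower at an unadjusted p under 0.05 (background 2.49%). Tph2 had a difference of -0.05 with a 95% interval from -2.11 to 2.02, and its direction changed when libraries were left out. The serotonin transporter gene Slc6a4 was at 5.21 and 9.26 TPM in vindeburnol replicates 1 and 3, at 0.218 and 9.64 TPM in VB-127 replicates 1 and 4, while the remaining libraries of the compounds lay between 27.5 and 50.1 TPM. The levels of Tph2 and Slc6a4 were thus low in the same 4 libraries, 2 of each compound. Cholinergic genes had a median of -0.17 over 6 tested with 0 at an unadjusted p under 0.05, among them Chat, which makes acetylcholine (-0.17, 95% interval -0.76 to 0.42).

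**Figure D4:**
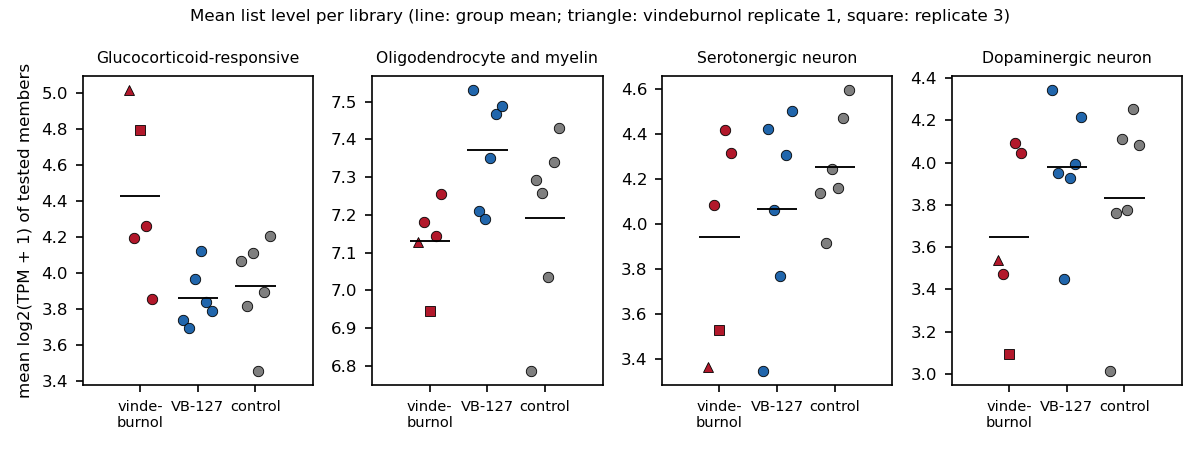
Mean log2(TPM + 1) of the tested members of 4 lists (y axes, not starting at 0) in each library, with the group mean as a line. Vindeburnol replicates 1 and 3 (triangle and square) are the 2 highest libraries for the glucocorticoid-responsive list. They are also 2 of the 3 lowest libraries of the compounds for the serotonergic list. VB-127 replicate 1 is the lowest of all for the serotonergic list (3.35) and is at 3.74 for the glucocorticoid-responsive list. VB-127 replicate 4, at 3.77 for the serotonergic list, has the highest glucocorticoid-responsive mean after VB-127 (4.12).

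Neuropeptide precursor genes had a median of -0.12 over 24 tested, with 1 lower at an unadjusted p under 0.05 against a background of 2.49% (Pmch, from 0 to 0.946 TPM with vindeburnol and from 0.879 to 2.66 TPM with VB-127). Peptides of the Edinger-Westphal nucleus were abundant with both compounds. Cartpt was at 235, 232, 176, 166 and 286 TPM after vindeburnol and at 179 to 301 TPM after VB-127, and Ucn at 40.1, 28.3, 25.7, 28.5 and 42.0 TPM and 23.8 to 42.0 TPM. Their differences of -0.05 and 0.05 had 95% intervals from -1.14 to 1.04 and from -1.51 to 1.61. Gal, a peptide of noradrenaline neurons, had a difference of -0.10 and the neurotrophin gene Bdnf one of -0.16.

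In the gene families that related alkaloids are known to act on, no member reached an unadjusted p under 0.05. Of all genes, 0.891% were higher and 2.49% lower at that p, so 0 in lists of this size says little. For tubulins, to which the antimitotic vinca alkaloids bind, 0 of 16 genes had an unadjusted p under 0.05, the median was -0.06, and all 16 intervals lay inside a 2-fold change; the abundant Tuba1a and Tubb4a had differences of -0.16 and -0.22. For cyclic nucleotide phosphodiesterases 0 of 19 genes reached that p, the median was 0.00 and all 19 intervals lay inside 2-fold, with Pde3b at 0.27 and Pde10a at -0.21. For voltage-gated sodium and calcium channels the values were 0 of 26, a median of 0.00 and 26 intervals inside 2-fold, with the calcium channel genes Cacna1b and Cacna1i at 0.31 and 0.30. Adrenergic, serotonin and dopamine receptor genes had 0 of 20 at that p, a median of -0.04 and 20 intervals inside 2-fold. Beyond these families, circadian clock genes, which share Per1 with the glucocorticoid-responsive list, had 0 of 21, a median of 0.01 and 21 intervals inside 2-fold. For genes of GABA and glycine transmission and of glutamate transmission, 27 of each were tested with 0 at that p, and 23 and 24 intervals lay inside 2-fold.

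Nuclear-encoded genes of the respiratory chain had 1 of 86 tested members higher and 6 lower at an unadjusted p under 0.05, against 0.891% and 2.49% of all genes. The count of 6 was 2 without vindeburnol replicate 3 or 4, 11 without replicate 5 and 12 without replicate 2. It was 3 without VB-127 replicate 3, 1 without vindeburnol replicates 1 and 3 together, 3 with Slc6a3 and Tph2 as covariates, 1 with median-ratio scaling, and 2 with TPM rescaled without Bc1 or without trend and robust moderation. Cox8b, a cytochrome oxidase subunit gene with low levels here, was listed at 0 in vindeburnol replicates 1, 2 and 4 and at 1.27 and 0.622 TPM in replicates 3 and 5, against 0.888 to 3.29 TPM after VB-127, a difference of -1.23 with an adjusted p of 0.802 in limma. The abundant subunit genes Cox5b and Cox6b1 had differences of -0.17 and -0.16. Cytosolic ribosomal protein genes had 1 of 83 lower and 0 higher, and mitochondrially encoded genes 0 of 13. All 83 and all 13 intervals lay inside 2-fold. The uncharacterised gene Gm28119 was at 1.51, 1.59, 2.73, 3.32 and 1.52 TPM after vindeburnol and at 2.91 to 4.75 TPM (median 4.05) after VB-127, a difference of -0.69, while its controls lay between 0.261 and 1.77 TPM. Bc1 itself, between 161380 and 293240 TPM after vindeburnol and at 167420 to 288130 TPM after VB-127, had a difference of 0.01 (95% interval -0.42 to 0.43), and the choroid plexus gene Ttr, at most 2.92 TPM, one of -0.16.

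**Figure D5:**
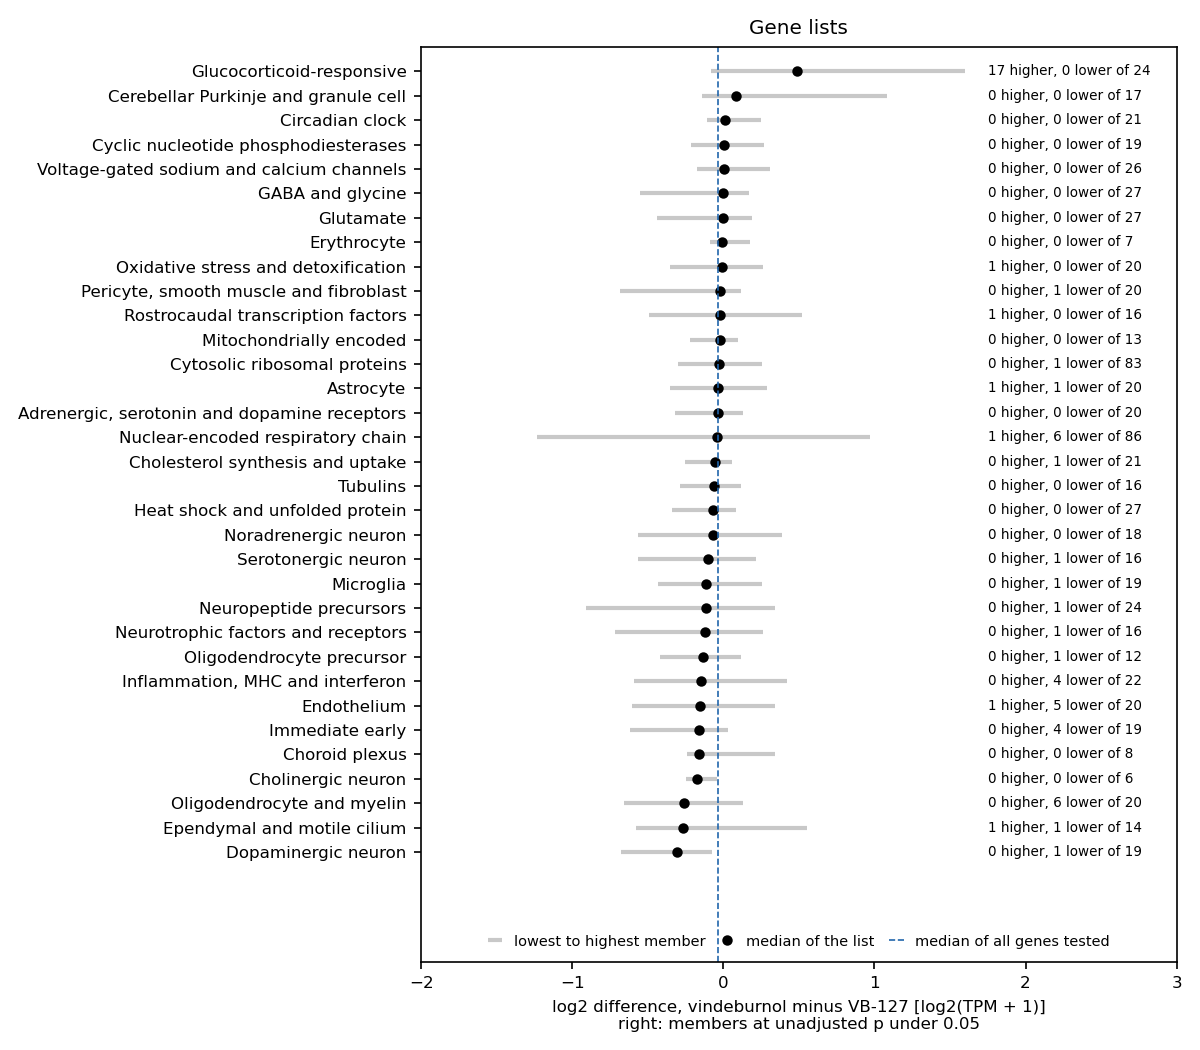
Median log2 difference, vindeburnol minus VB-127, of the 33 gene lists (black points) with the range of their members (grey bars); the dashed line is the median of all genes tested, and the text at the right counts members at an unadjusted p under 0.05. The glucocorticoid-responsive list lies apart on the right with a median of 0.49, the dopaminergic list is lowest with -0.31, and the medians of the other lists lie between them.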

How the data were processed

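Poly(A) RNA of 17 libraries was made into strand-marking libraries, per the labels' protocols. Reads were aligned with STAR and quantified with Salmon on GRCm39 (mm39), per the submitters' processing notes; versions are not given in the sources used here. The authors deposited TPM for 78298 genes in each library, which carry no read depth. From these, log2(TPM + 1) values were computed (pseudocount 1), a scale that understates the fold change of low genes. Genes with at least 1 TPM in at least 5 libraries were tested (16153). All 17 libraries entered a linear model on group alone in limma 3.58.1 (R 4.3.3), with trend and robust moderation, and vindeburnol minus VB-127, the only pair of compounds, was tested two-sided with Benjamini-Hochberg adjustment over all genes and a call at 0.05. The fit was tested on simulated data. Measures per library were compared by two-sided exact permutation, whose smallest possible p is 0.00216.

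Named genes were, per direction, the 15 with the smallest p and the 4 with the largest difference at unadjusted p under 0.05, among symbols that are not predicted names with a mean of at least 2 TPM, a set of marker genes, up to 5 members of a list and all glucocorticoid-responsive genes; Slc6a4, Slc6a2, Pcp2 and the predicted genes of the closing section are named for their library values. A gene that the rule names is not reported here. The comparison, the lists and these rules were chosen with earlier results of these data known. Replicate numbers did not pair the samples and were not part of the main fit. Alternatives covered the pseudocount, filter, scaling, weights, moderation, covariates, a replicate block and left-out libraries. Promoters came from RefSeq (GRCm38.p6), matched by symbol; no coordinates of the files' own build were used.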

Additional observations from a re-analysis of the deposited data

Results flagged for a closer look

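In 218 groups of values examined on the log2(TPM + 1) scale or as shares, 11 held a library whose distance from its nearest neighbour was large against the range of its group. Chance alone gives such a library in about 1 in 20 groups, which for 218 groups is close to the number seen. After vindeburnol, Mt1 was at 1262 TPM in replicate 1 against 923 to 1000 TPM in the other 4 libraries, and H2ac24 was at 0 TPM in replicate 1 against 5.13 to 11.8 TPM. Jun was at 9.22 TPM in replicate 1 against 14.8 to 17.4 TPM, and Arc at 4.98 TPM in replicate 3 against 10.8 to 13.5 TPM. Bdnf was at 8.63 TPM in replicate 2 against 4.64 to 5.14 TPM, and Dbh at 1.72 TPM in replicate 4 against 0 to 0.228 TPM. Replicate 5 alone had values above 0 for the transfer RNA genes mt-Tp (6.76 TPM) and mt-Tv (20.1 TPM). After VB-127, mt-Tp was at 0 TPM in replicate 6 against 12.6 to 53.2 TPM, mt-Tv at 0 TPM in replicate 2 against 12.2 to 52.1 TPM, and Mertk at 3.95 TPM in replicate 2 against 6.18 to 7.70 TPM.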

How the results depend on the processing

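The count of called genes was 0 in the main fit and under all 31 alternatives. The 546 genes at unadjusted p under 0.05 became 1254 with no filter, 297 with a filter of 5 TPM, 1100 with library weights and 290 without vindeburnol replicates 1 and 3; leaving out 1 library gave 420 to 834, and the replicate block gave 427. The 63 genes without overlap became 96, 36 and 212 with no filter, 5 TPM and without those 2 libraries, and 61 to 230 with 1 library left out. Dropping the filter or setting it at 5 TPM also changed how many genes were tested, and those numbers are not given here. The counts under these 2 settings therefore cannot be set against 546 or 63 as a change in the result. Smaller groups overlap less easily whatever the data. The counts with libraries left out therefore cannot be set against 63 as a change in the result. The 17 glucocorticoid-responsive genes became 11 at 5 TPM, 3 without the 2 libraries and 9 to 19 with 1 left out, and the block left the count at 17. At 5 TPM, Angptl4, Cebpd, Hif3a, Map3k6, Pdk4 and Zbtb16 did not pass the filter and were not tested. Replicate numbers share no stated animal or day. For each gene the mean of its group was subtracted, and the remainders were correlated between vindeburnol and VB-127 libraries. These correlations ran from -0.0961 to 0.0165 for same-numbered libraries, and own numbers correlated best in 0 of 5.

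Of 105 gene differences, 94 kept their direction in every alternative. Many of these genes were named for a small p or a large difference in this same comparison, so a kept direction is no independent support. The differences per library were near 0 and changed sign: without the 2 libraries, genes above 0 gave 168.8, the Bc1 share -1.40 and the share of the 10 most abundant genes -1.41 (percentage points). With 1 library left out they ran from -1424 to 69.8, -1.63 to 1.91 and -1.13 to 1.87, and the mitochondrially encoded share from -0.710 to 0.194. Differences near 0 also changed sign for single genes. With 1 library left out, Tph2 ran from -0.862 to 0.536, Cartpt from -0.153 to 0.0420, Chat from -0.404 to 0.00416, Gal from -0.275 to 0.0155, Ttr from -0.211 to 0.0457, Ucn from -0.0381 to 0.139, Actb from -0.0114 to 0.0360, Bc1 from -0.118 to 0.102, Dusp1 from -0.191 to 0.0397, Klf9 from 0.0662 to 0.303 and Tiparp from -0.00148 to 0.320. Without the 2 libraries, Tph2 was 1.05, Klf9 -0.0413, Tiparp -0.119, Chat 0.00142, Cartpt 0.00172, Gal 0.0548, Ttr 0.110 and Bc1 -0.109. With library weights, Tph2 was 0.416, Klf9 -0.0125, Tiparp -0.0172, Cartpt 0.0392 and Ttr 0.0809. Tph2 was 0.0464 at a pseudocount of 0.1 and 0.166 with the replicate block, where Bc1 was -0.0577; with Slc6a3 and Tph2 as covariates, Cartpt was 0.254 and Bc1 -0.00921. The causes were not tested. The spread between 5 and 6 libraries limits what can be seen: the 95% interval reached beyond 2-fold for Th, Tph2, Slc6a3 and Sgk1, among others.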

Other observations

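Genes with predicted names stood outside the rule for named genes, and 4 were chosen after their values were seen. Gm14965 was at 2.30, 1.08, 1.39, 1.06 and 0.818 TPM after vindeburnol and at 0 to 0.894 TPM after VB-127. Gm44982 was at 0, 0, 1.21, 0 and 0.202 TPM after vindeburnol and at 1.15 to 2.53 TPM after VB-127, while controls lay between 0 and 1.16 TPM. Gm29502 lay between 0 and 0.445 TPM with vindeburnol and between 0.812 and 1.31 TPM with VB-127. Gm14419 was listed at 0 in vindeburnol replicates 2, 3 and 4 and lay between 3.02 and 6.42 TPM after VB-127. The cerebellar granule cell gene Gabra6 was at 2.38 TPM in vindeburnol replicate 3 and at most 0.186 TPM in the other libraries of the compounds.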
